A study of Mus musculus with 4 samples.

Results

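DNA replication and S-phase genes are described here in dendritic cells (DC) of the mouse spleen, compared between mice given TCDD and mice given the solvent. TCDD is a dioxin and a strong ligand of the aryl hydrocarbon receptor. The list holds 41 genes, chosen by function: origin licensing, the MCM helicase, polymerases, the sliding clamp and its loader, flap removal and ligation, nucleotide supply and the copying of chromatin. A gene was measured if a probe set of the array was annotated to its symbol alone, and each gene is given by the probe set with the highest mean over the 4 arrays. In this way 40 of the 41 members were found, among 12393 genes measured in all; Chaf1a is named only.

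Per the labels, all mice were female C57BL/6, between 8 and 12 weeks old, with 3 mice in a group. The TCDD group received 10 µg/kg TCDD in corn oil, the control group DMSO in corn oil, both by intraperitoneal injection, and spleens were taken 24 h later. The spleens were pooled, and a density gradient followed by magnetic sorting gave DC of a stated purity above 90%. RNA was amplified before labelling, and 2 Affymetrix arrays were run per group, numbered as biological replicates. The sources used here do not tell if the arrays of a group came from separate mice, so p-values measure only the spread between these arrays, which may be technical. In bulk RNA fewer cycling cells and less RNA per cycling cell cannot be told apart.

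A cell copies its DNA only in S phase. Origins are marked by the origin recognition complex and licensed in G1, when Cdc6 and Cdt1 load the MCM helicase; in S phase the helicase opens the helix, polymerases copy both strands, and Pcna, a ring clamped onto DNA by replication factor C, holds the polymerases in place. Most of these genes are transcribed at the G1/S border under E2F transcription factors, so their transcripts mark cells that prepare for or pass through S phase. In the DC lineage, division takes place mainly in precursors, and a part of the spleen's conventional DC still divides.

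The E2F factors bind sites of the form TTTCCCGC or TTTGGCGC. These letters were looked up because members lay low together on the TCDD arrays. Promoter windows of 300 bases (250 before to 50 after an annotated start) come from RefSeq on GRCm38.p6, and 36 of the 41 members have a window; Gmnn, Mcm4, Prim2, Pole and Rfc2 are named only. The search took TTTCCCGC, TTTGGCGC, TTTCGCGC and TTTGCCGC on both strands, that is also GCGGGAAA, GCGCCAAA, GCGCGAAA and GCGGCAAA, and matches may overlap each other. Of the 36 members 14 held a match, or 38.9%, against 2.6% of the 27025 genes in the table. Counted by window, 31.1% of 45 member windows held a match, against 2.26% of all 32851 windows. A CCAAT box (CCAAT or ATTGG) was in 60.0% of the member windows and 37.4% of all windows. A match is a run of letters and not a site shown to be bound.

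The stretches below belong to the members that lay lower on both TCDD arrays and hold a match. Capitals mark the match, and each stretch reads in the direction of its gene. For Mcm6 the 200 bases before the start are shown, at chr1:128359706-128359905 on the minus strand, with 3 matches of which 2 overlap. For the others 30 bases around a match are shown. Those of Mcm7 are chr5:138172030-138172059 and chr5:138171849-138171878 (minus strand), and that of Pola1 is chrX:93632275-93632304 (minus strand). On the plus strand are Mcm5 at chr8:75109347-75109376, Cdt1 at chr8:122568035-122568064, Cdc6 at chr11:98908002-98908031, Lig1 at chr7:13278841-13278870, Uhrf1 at chr17:56304117-56304146 and Hells at chr19:38930917-38930946.
Mcm6: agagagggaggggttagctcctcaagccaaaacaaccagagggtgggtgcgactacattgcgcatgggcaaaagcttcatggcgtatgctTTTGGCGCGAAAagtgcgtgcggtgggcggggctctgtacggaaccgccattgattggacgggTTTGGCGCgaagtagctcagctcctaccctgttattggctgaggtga
Mcm7, before the start: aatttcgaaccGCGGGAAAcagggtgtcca
Mcm7, after the start: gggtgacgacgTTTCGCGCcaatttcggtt
Mcm5: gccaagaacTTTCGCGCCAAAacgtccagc
Pola1: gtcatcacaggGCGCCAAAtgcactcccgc
Cdt1: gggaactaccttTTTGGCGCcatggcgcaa
Cdc6: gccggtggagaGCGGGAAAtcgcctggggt
Lig1: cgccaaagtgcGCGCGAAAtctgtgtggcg
Uhrf1: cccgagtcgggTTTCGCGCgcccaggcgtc
Hells: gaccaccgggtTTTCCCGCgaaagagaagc

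In the Mcm6 promoter the matches begin 110, 106 and 47 bases before the start. Mcm5 has its first 153 bases before the start, Pola1 and Cdc6 138, Uhrf1 185 and Hells 62 bases before it. In Cdt1 and Lig1 the match lies after the start, at base 33 and base 27. Mcm7 has matches 165 bases before and 17 bases after the start. Mcm7, Lig1 and Uhrf1 have more than 1 window, each for its own annotated start. Only 1 window of each held a match, and its positions count from that start. The 5 other members with a match, Orc1, Mcm3, Pold1, Rfc3 and Dnmt1, did not lie lower on both TCDD arrays.

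Values are deposited RMA values on the log2 scale. Differences are TCDD minus DMSO on that scale, with the moderated standard error (SE) of limma and n = 2 arrays per group. "Lower without overlap" means that both TCDD arrays lay below both DMSO arrays. On the deposited values the difference was below 0 in 33 of the 40 measured members, above 0 in 5 and exactly 0 in 2. Over all 12393 genes 49.2% were below 0. Between the lower and upper level quartile of the members (6.03 and 8.06) 18 of 21 members were below 0, against 55.1% of the 5187 genes there. Under quantile normalization 25 of the 40 members were below 0 and under cyclic loess 30. The median difference was -0.35, against 0.00 over all genes, and moved to -0.11 under quantile normalization and -0.15 under cyclic loess. Without overlap 17 members, or 42.5%, were lower and 1, Tyms, was higher; over all genes 19.4% were lower and 20.0% higher. At least 2-fold lower without overlap were 4 members, Mcm6, Hells, Pcna and Pola1, against 2.42% of all genes; 0 were at least 2-fold higher, against 0.387%.

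None of this passed the test on single genes. With limma and Benjamini-Hochberg adjustment over 22626 probe sets 0 were called at an adjusted p under 0.05, or 0.0% of those tested, while 2958 had an unadjusted p under 0.05; quantile normalization, cyclic loess and other limma settings called 0 as well. The smallest adjusted p of a member was 0.349. At an unadjusted p under 0.05 there were 8 members, 7 lower (Cdc6, Mcm2, Mcm4, Mcm6, Pola1, Pola2 and Uhrf1) and 1 higher (Tyms), against 7.35% of all genes lower and 7.1% higher. The members were chosen with earlier results of these data known, so these counts describe the list and are no independent test of it.

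**Figure D1:**
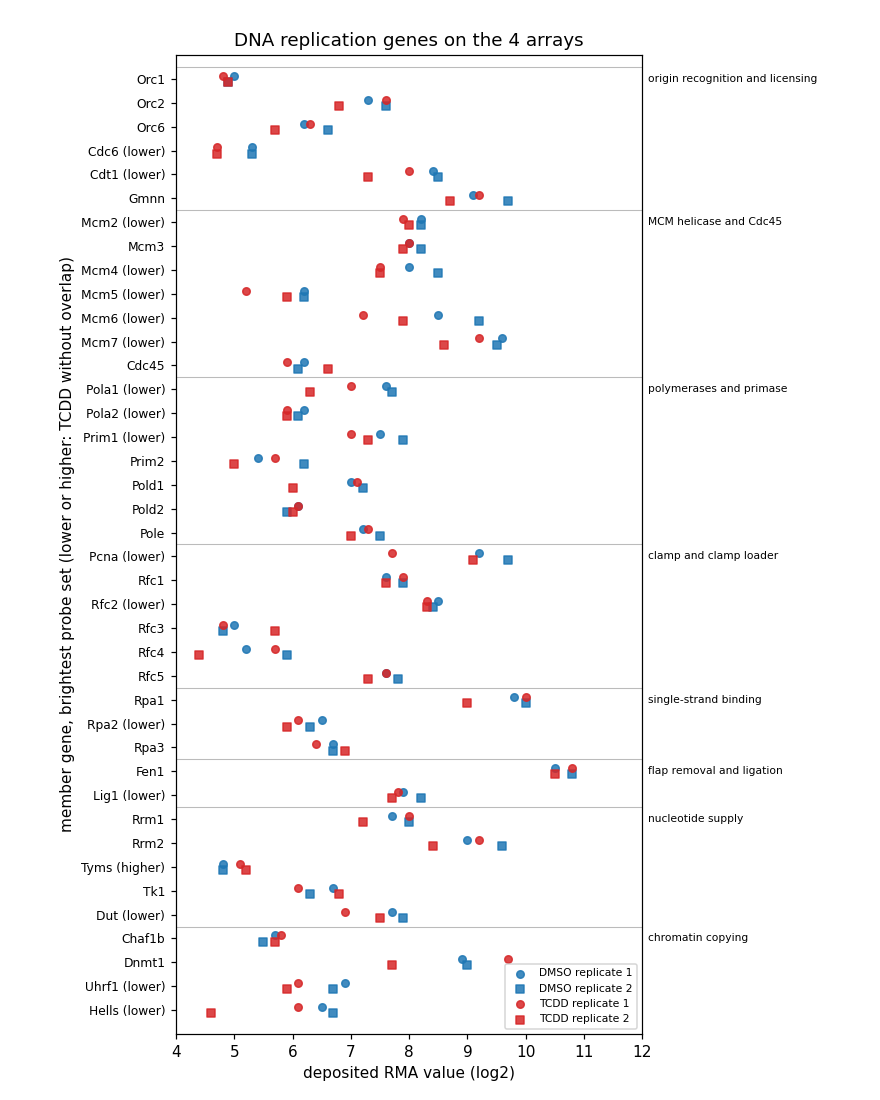
Deposited RMA value (log2, horizontal axis) of the 40 measured members on each array, by role; blue points are the DMSO arrays and red points the TCDD arrays, circles replicate 1 and squares replicate 2. The words beside a gene mark the 17 members whose red points both lie left of both blue points and Tyms, the 1 member with the opposite order.

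The MCM subunits, which form the helicase loaded at origins, were the role with the most members lower without overlap: 5 of the 7 genes of the helicase group, which also holds Cdc45. Beside this and the roles below stand the 19.4% of all genes that were lower without overlap, and 40.6% at a DMSO level from 8 to 9. The median difference of the group was -0.65. Under quantile normalization it was -0.29, with 3 genes lower and 1 higher. Under cyclic loess it was -0.34, with 4 lower. Mcm6 lay at 8.5 and 9.2 with DMSO and at 7.2 and 7.9 with TCDD. Its difference of -1.30 (SE 0.407, adjusted p = 0.379) is 2.46-fold. Both TCDD values of Mcm6 were under every DMSO value.

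Mcm4 lay at 8.0 and 8.5 in DMSO and at 7.5 on both TCDD arrays, a difference of -0.75 (SE 0.212, adjusted p = 0.379). Mcm5 was at 6.2 on both DMSO arrays and at 5.2 and 5.9 with TCDD, a difference of -0.65 (SE 0.291). Mcm7 lay at 9.6 and 9.5 with DMSO and at 9.2 and 8.6 with TCDD, also a difference of -0.65 (SE 0.255). In Mcm5 the low value was on TCDD replicate 1 and in Mcm7 on TCDD replicate 2, so the lower TCDD array was not the same in these genes.

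Mcm2 was at 8.2 on both DMSO arrays and at 7.9 and 8.0 with TCDD, a difference of -0.25 (SE 0.0744). This small difference turned to 0.075 under quantile normalization. Mcm3 overlapped on its brightest probe set, at 8.0 and 8.2 with DMSO and 8.0 and 7.9 with TCDD; its difference of -0.15 turned to 0.15 under quantile normalization, higher without overlap, and to 0.093 under cyclic loess. Cdc45, which joins the MCM ring to form the active helicase, differed by 0.10 with TCDD replicate 2 at 6.6, above both DMSO arrays at 6.2 and 6.1.

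Several MCM genes had further probe sets, and these did not all repeat the brightest. The dimmer Mcm2 probe set lay at 6.8 and 6.8 with DMSO and 6.0 and 6.3 with TCDD, a difference of -0.65. Mcm3 had 4 more; 2 of them were lower without overlap, by -0.55 and -0.70, the latter at 6.0 and 6.1 with DMSO and 5.3 and 5.4 with TCDD, and the others differed by 0.15 and -0.15. Mcm7 had 3 more: one at 7.5 and 7.5 with DMSO and 5.5 and 7.3 with TCDD differed by -1.10, with almost the whole difference on TCDD replicate 1. The other Mcm7 probe sets differed by -0.35 and -0.30. The second probe sets of Mcm4 and Mcm6 overlapped between groups, at differences of -0.30 and -0.75: on both of them TCDD replicate 1 lay above the DMSO arrays and TCDD replicate 2 far below. For Mcm6 these values were 7.9 and 8.3 in DMSO, 8.4 in TCDD replicate 1 and 6.3 in TCDD replicate 2.

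Among the genes of origin recognition and licensing all 6 differences were below 0, and 2 were lower without overlap. Cdt1, which with Cdc6 loads the helicase, lay at 8.4 and 8.5 with DMSO and at 8.0 and 7.3 with TCDD, a difference of -0.80 (SE 0.294, adjusted p = 0.427). Its other probe sets both differed by only -0.10. Cdc6 lay at 5.3 on both DMSO arrays and 4.7 on both TCDD arrays, a difference of -0.60 (SE 0.0624, adjusted p = 0.349). The Cdc6 probe set was dim, below the 40th percentile of all probe sets (log2 5.53), where a change can be understated; its spread of 0 within groups comes with values rounded to 1 decimal.

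Geminin (Gmnn), the inhibitor of Cdt1 after origins have fired, lay at 9.1 and 9.7 with DMSO and 9.2 and 8.7 with TCDD, a difference of -0.45 with overlap. Of the origin recognition subunits, Orc6 differed by -0.40, Orc2 by -0.25 and the dim Orc1 by -0.10, all with overlap. Further probe sets of Orc2 went the other way, by 0.15 and, on a dim one, 0.05, also with overlap.

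In the polymerase group 3 of 7 genes were lower without overlap, and these were subunits of the polymerase alpha and primase complex, which starts each new strand with a short RNA and DNA primer. Pola1, its catalytic subunit, lay at 7.6 and 7.7 with DMSO and at 7.0 and 6.3 with TCDD. Its difference was -1.0 (SE 0.294, adjusted p = 0.379), or 2.0-fold. The primase gene Prim1 lay at 7.5 and 7.9 with DMSO and at 7.0 and 7.3 with TCDD, a difference of -0.55 (SE 0.212). Pola2, the regulatory subunit, differed by only -0.25, from 6.2 and 6.1 to 5.9 and 5.9. On these probe sets all TCDD arrays were lower, but Prim1's second probe set overlapped at -0.25 and Pola2's second, dim one differed by 0.05.

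Prim2, the other primase subunit, overlapped on its brighter probe set (difference -0.45) and was lower on the other, a dim one, at 5.8 and 5.8 with DMSO and 5.1 and 5.2 with TCDD, a difference of -0.65. The genes of the polymerases that extend the strands overlapped. Pold1, the catalytic subunit of polymerase delta, lay at 7.0 and 7.2 with DMSO and 7.1 and 6.0 with TCDD, a difference of -0.55 that rests on TCDD replicate 2; its other probe set differed by -0.05. Pole differed by -0.20 and Pold2 by 0.05.

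Pcna, the clamp, lay at 9.2 and 9.7 with DMSO and at 7.7 and 9.1 with TCDD. The difference of -1.05 (SE 0.607, adjusted p = 0.519) is 2.07-fold, but TCDD replicate 2 stood only 0.1 below the nearer DMSO array while TCDD replicate 1 was far lower. Pcna has no other probe set of its own, and under quantile normalization and cyclic loess its groups overlapped. Of the genes of the clamp loader, Rfc2 went from 8.5 and 8.4 to 8.3 and 8.3, lower without overlap by -0.15, and Rfc5 (-0.25) and Rfc1 (0.00) overlapped. Rfc4 lay at 5.2 and 5.9 with DMSO and at 5.7 and 4.4 with TCDD, a difference of -0.50 with overlap that rests on TCDD replicate 2. Rfc3 differed by 0.35 with overlap, and both were dim. Their second probe sets were dim too. That of Rfc4 was lower without overlap by -0.25, and that of Rfc3 differed by -0.05 with overlap. A dim further probe set of Rfc1, the large loader subunit, was higher without overlap by 0.65.

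Replication protein A covers single-stranded DNA behind the helicase. Rpa2 lay at 6.5 and 6.3 with DMSO and at 6.1 and 5.9 with TCDD, a difference of -0.40 (SE 0.131) without overlap. The second Rpa2 probe set, a dim one, differed by 0.10 with overlap. Rpa1 overlapped on its brightest probe set, at 9.8 and 10 with DMSO and 10 and 9.0 with TCDD, while its other probe set was lower without overlap, at 7.3 and 7.4 with DMSO and 6.3 and 6.6 with TCDD, a difference of -0.90. Rpa3 differed by -0.05. Lig1, which seals the fragments of the lagging strand, lay at 7.9 and 8.2 with DMSO and 7.8 and 7.7 with TCDD, a difference of -0.30 without overlap.

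Fen1, the nuclease that trims those fragments, shows how far the choice of probe set matters. On its brightest probe set it lay at 10.5 and 10.8 in both groups, a difference of 0.00. On the other it lay at 6.1 and 6.3 with DMSO and 5.7 and 5.3 with TCDD, a difference of -0.70 without overlap. The brighter one carries the suffix _x_at, which Affymetrix gives to probe sets with probes that can also match other transcripts.

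In nucleotide supply 1 of 5 genes was lower and 1 higher without overlap. Dut, which removes dUTP so that uracil is not built into DNA, lay at 7.7 and 7.9 with DMSO and at 6.9 and 7.5 with TCDD, a difference of -0.60 (SE 0.264). Rrm2, the S-phase subunit of ribonucleotide reductase, lay at 9.0 and 9.6 with DMSO and 9.2 and 8.4 with TCDD on its brightest probe set, an _x_at one, and overlapped at -0.50. A further Rrm2 probe set was lower, at 6.1 and 6.8 with DMSO and 5.5 and 5.2 with TCDD, a difference of -1.10 (SE 0.316). The remaining Rrm2 probe set differed by -0.35, so all 3 were below 0 and only 1 lacked overlap.

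Tyms, thymidylate synthase, was the only member higher without overlap, at 4.8 and 4.8 with DMSO and 5.1 and 5.2 with TCDD, a difference of 0.35 (SE 0.0744, adjusted p = 0.349). All 3 Tyms probe sets were dim, and the others differed by -0.05 and 0.10. A probe set shared by Tyms and its pseudogene Tyms-ps, which was not counted for the member, lay at 6.4 and 6.7 with DMSO and 6.3 and 6.1 with TCDD, a difference of -0.35. The direction of Tyms therefore differed between its probe sets. Rrm1, the large subunit of ribonucleotide reductase, and the thymidine kinase Tk1 overlapped, at -0.25 and -0.05. The second probe set of Rrm1 differed by 0.20 with overlap. The second probe set of Dut was dim and higher without overlap, by 0.25.

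Among the genes that copy chromatin with the DNA, Uhrf1 and Hells were lower without overlap. Uhrf1, which brings the maintenance methyltransferase to newly copied DNA, lay at 6.9 and 6.7 with DMSO and at 6.1 and 5.9 with TCDD, a difference of -0.80 (SE 0.131, adjusted p = 0.349). Hells, a chromatin remodeler needed for DNA methylation, lay at 6.5 and 6.7 with DMSO and at 6.1 and 4.6 with TCDD. The Hells difference of -1.25 (SE 0.618) came mostly from TCDD replicate 2. Dnmt1, the maintenance methyltransferase itself, lay at 8.9 and 9.0 in DMSO with TCDD replicate 1 above at 9.7 and TCDD replicate 2 below at 7.7. Its difference of -0.25 became 0.75 without TCDD replicate 2 and 0.05 under quantile normalization, and its second probe set differed by -0.50 with overlap. Chaf1b, a chain of the chromatin assembly factor, differed by 0.15, and the second Uhrf1 probe set, a dim one, by -0.10.

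Over the 73 probe sets of the 40 members, 27 were lower without overlap and 3 higher, against 18.4% and 19.0% of all 22626 probe sets. The second and further probe sets number 33, of which 13 were dim; 10 of the 33 were lower without overlap and 2 higher, against 17.6% and 17.5% of the 7987 further probe sets of all genes, and their median difference was -0.15.

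The TCDD arrays did not resemble each other on these genes as the DMSO arrays did. Across the 40 members, which are not independent replicates, Pearson's r was 0.984 between the DMSO arrays and 0.888 between the TCDD arrays, and over all probe sets tested 0.982 and 0.953. TCDD replicate 1 lay below both DMSO arrays in 21 members and TCDD replicate 2 in 30; over all genes these shares were 24.5% and 46.3%. Above both DMSO arrays lay 3 members on TCDD replicate 1 and 5 on TCDD replicate 2, against 41.8% and 26.5% of all genes. The median of the members against the DMSO mean was -0.18 on TCDD replicate 1 and -0.40 on TCDD replicate 2, beside 0.05 and -0.10 over all genes.

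**Figure D2:**
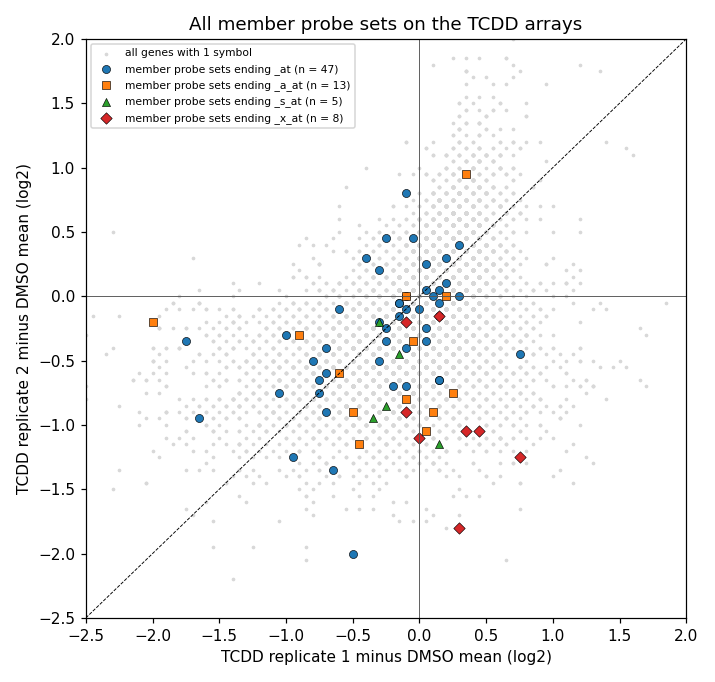
Each of the 73 member probe sets by its value on TCDD replicate 1 (horizontal) and TCDD replicate 2 (vertical) minus the DMSO mean (log2), with marker and colour by the suffix of its name; grey points are all genes with 1 symbol that fall within the axes, and the dashed line marks equal values. All 8 _x_at probe sets, the red diamonds, lie under the dashed line.

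The suffix of the probe set moved with this. All 8 _x_at probe sets of members (of Mcm3, Mcm4, Mcm6, Mcm7, Pold1, Fen1, Rrm2 and Dnmt1) had a higher value on TCDD replicate 1 than on TCDD replicate 2, with a median gap of 1.25, and 0 of 8 were lower without overlap. Over all 1512 _x_at probe sets 72.4% were higher on TCDD replicate 1, with a median gap of 0.30, and 10.3% were lower without overlap. Of the 396 _x_at probe sets at a mean level from 7 to 9, 76.8% were higher there, with a median gap of 0.60. Of the 15605 plain _at probe sets 56.4% were higher on TCDD replicate 1. With the brightest probe set that is not _x_at, a choice made after the data were seen, 20 of 40 members were lower without overlap, 1 was higher and the median was -0.40. The same choice over all genes gave 20.3% lower. The part of the probe design in the members' differences was not tested.

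Control probe sets of TCDD replicate 1 stood apart too. The signal of the 3′ end exceeded the middle of the transcript by 3.6 for Gapdh and 4.0 for beta-actin there, on the log2 scale, against 1.5 to 2.1 on the other 3 arrays. Pcna, Mcm5, Dut and a Mcm7 probe set had the low value mainly on that array. Mcm6 was also lower there, at -1.65 from the DMSO mean against -0.95 on TCDD replicate 2. So were Prim1 (-0.70 against -0.40) and Mcm2 (-0.30 against -0.20). For all of these the part of this gap in the result was not tested. Without TCDD replicate 1 the median of the members was -0.40 and without TCDD replicate 2 it was -0.18; all genes then stood at -0.10 and 0.05.

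The difference also depended on the level of the signal. Over all genes the median difference was 0.10 at a DMSO level under 6, 0.00 from 6 to 7, -0.20 from 7 to 8 and -0.40 above 8. Members at a level from 6 to 7 were lower without overlap in 5 of 10 genes, against 14.4% of all genes there. From 7 to 8 the members gave 3 of 9 against 29.6%, from 8 to 9 6 of 8 against 40.6%, and from 9 up 2 of 6 against 45.1%. Under 6 it was 1 of 7 against 7.04%. Between the lower and upper level quartile of the members (6.03 and 8.06) 9 of 21 members were lower without overlap and 0 higher, against 22.1% and 18.4% of the 5187 genes there. Above a level of 9 the share of members was thus not above that of other genes, and from 7 to 8 it was close to it.

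**Figure D3:**
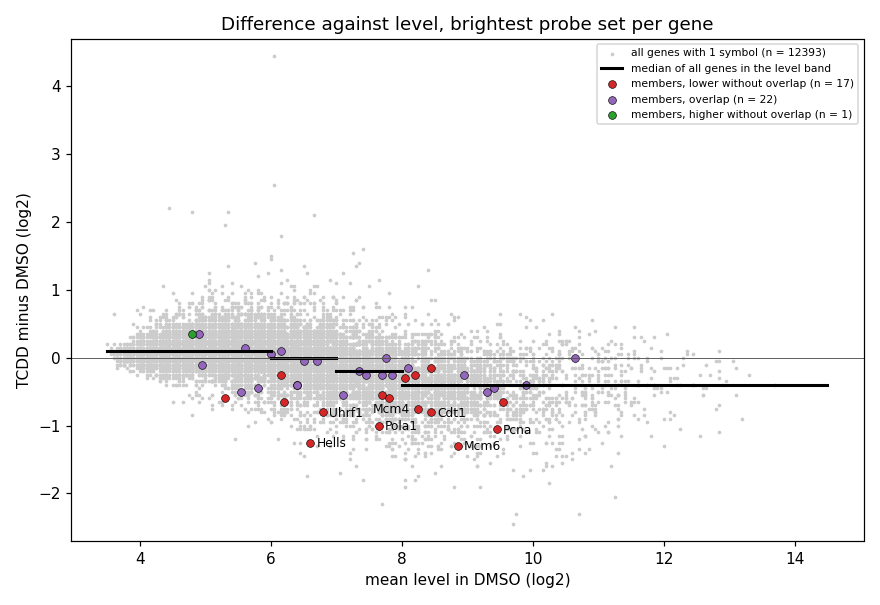
TCDD minus DMSO (log2, vertical axis) against the mean DMSO level (log2, horizontal axis) for the brightest probe set of each of 12393 genes in grey and of the 40 members in colour; black bars are the median of all genes in each level band. Bright genes lie below 0 in general, and Mcm6, Hells, Pcna and Pola1 are at or under -1.

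Scaling that removes such a level-dependent shift left fewer members. Under quantile normalization 10 members were lower without overlap and 3 higher (Mcm3, Fen1 and Tyms), against 15% and 23.9% of all genes. Cyclic loess gave 12 lower and 3 higher (Rfc1, Fen1 and Tyms), against 21.2% and 24.2%. Median centring gave 19 and 1, against 25.2% and 14.2%. The members' 25% lower under quantile normalization and 30% under cyclic loess were nearer to the background than on the deposited values. Lower without overlap on all 4 scalings were 10 members: Cdc6, Cdt1, Mcm4, Mcm5, Mcm6, Pola1, Pola2, Rpa2, Uhrf1 and Hells. The share of all genes lower on all 4 scalings was not counted, so these 10 have no matching background. The other 7 of the 17 (Mcm2, Mcm7, Prim1, Pcna, Rfc2, Lig1 and Dut) were not. The medians of the clamp and loader group and of flap removal and ligation turned above 0 under quantile normalization and cyclic loess, and that of nucleotide supply under quantile normalization (0.01).

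Of the 10 members that were lower on every scaling 9 have a promoter window, and 7 of these hold an E2F match. Over all genes 19.4% were lower without overlap on the deposited values. By DMSO level this share was 14.4% from 6 to 7, 29.6% from 7 to 8 and 40.6% from 8 to 9. Among all 35 measured members with a window, the 14 with a match had a median difference of -0.63 and 9 lower without overlap. The 21 without one had a median of -0.25 and 6 lower. Both ranges were wide, from -1.30 to 0.35 with a match and from -1.05 to 0.35 without, and the difference between these sets was not tested. The motif was chosen with the values known.

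Further genes of the pathway were read on lists drawn up by function. Over all genes 19.4% were lower and 20.0% higher without overlap, and under quantile normalization 15% and 23.9%. The share lower rose with level, to 29.6% of all genes at a DMSO level from 7 to 8. Of 30 other replication fork and origin genes that were measured 16 were lower without overlap and 0 higher, with a median of -0.38 and 0 past the adjusted threshold. Cdc7, the kinase that fires licensed origins, lay at 7.7 and 8.5 with DMSO and at 6.8 and 6.7 with TCDD, a difference of -1.35 (SE 0.333). Topbp1, which is needed to start forks, differed by -1.20, the topoisomerase Top1 by -1.0 (SE 0.143), Tipin by -0.80 and the MCM-binding protein gene Mcmbp by -0.65. Under quantile normalization 9 of the 30 were lower and 1 higher.

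Of 19 other nucleotide supply genes 9 were lower and 1 higher without overlap, with a median of -0.30. The purine synthesis gene Adss lay at 7.6 and 8.3 with DMSO and at 6.4 and 6.9 with TCDD, a difference of -1.30 (SE 0.355), and Adsl of the same pathway differed by -0.85. Dck, which salvages deoxynucleosides, differed by -0.80 and the CTP synthase Ctps by -0.75. Samhd1, which breaks down deoxynucleotides and thus acts against their supply, was lower as well, by -0.70. The 1 higher gene was Shmt1, of folate metabolism, by 0.15. Under quantile normalization 5 of these 19 were lower and 3 higher.

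Of 30 regulators of the G1/S border 5 were lower without overlap, 1 was higher and the median was -0.05. On the deposited values the share lower, 16.7%, was not above the 19.4% of all genes. Under quantile normalization 6 of the 30 were lower and 5 higher, against 15% and 23.9% of all genes. Cyclic loess gave 8 lower and 3 higher, against 21.2% and 24.2%. Median centring gave 6 and 0, against 25.2% and 14.2%. Ccnd1, the D-type cyclin that starts the passage through G1, was at 10 on both DMSO arrays and at 8.7 and 8.8 in TCDD. Its difference was -1.25 (SE 0.0744, adjusted p = 0.349). Rbl1, the pocket protein p107, also differed by -1.25, Cdk2 by -0.60 and the inhibitor gene Cdkn2c by -0.55. The fifth lower gene, Ccne2, was dim and differed by -0.85. Mycn was higher by 0.10. The measured E2F genes overlapped, E2f1 at -0.20, E2f3 (dim) at 0.00, E2f4 at 0.10, E2f5 at -0.05, E2f6 at 0.05 and E2f8 at 0.20. Ccnd2 (-0.05) and Ccnd3 (-0.30), the other D-type cyclins, overlapped too.

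Mitosis genes were lower without overlap in 12 of 21 cases and higher in 1, with a median of -0.55. The spindle checkpoint gene Mad2l1 lay at 7.3 and 7.8 in DMSO and at 6.5 on both TCDD arrays, a difference of -1.05 (SE 0.212). Top2a differed by -0.95, Cdk1 and Nusap1 by -0.85 each and Bub1 by -0.75. The 1 higher gene was Kif23, a motor of cell division, by 0.45. Shmt1, Ccne2, Kif23, the E2F genes, Ccnd2 and Ccnd3 fall outside the rule for naming and were picked after their values were seen. On the other scalings 11 to 13 of the 21 were lower, against 15% to 25.2% of all genes.

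**Figure D4:**
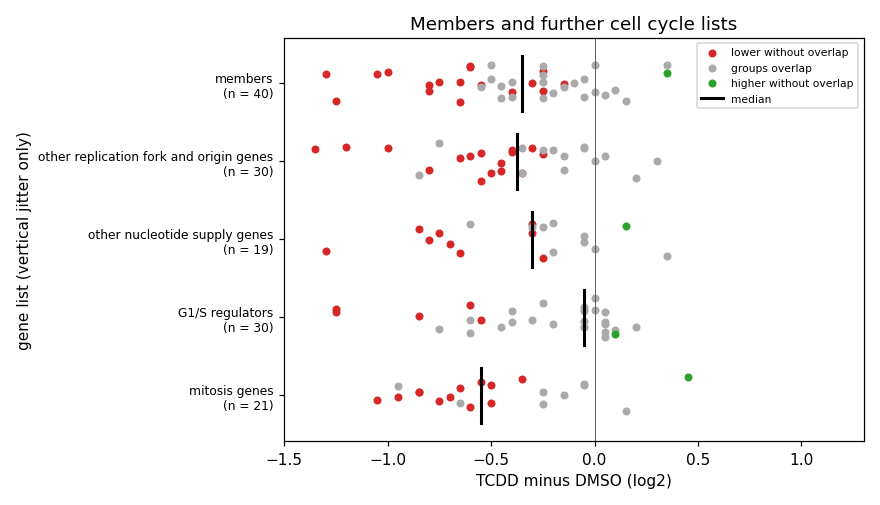
TCDD minus DMSO (log2, horizontal axis) of each measured gene of the members and of 4 further lists; red points are lower and green points higher without overlap, grey points overlap, and black bars are medians. The medians are -0.35 for the members, -0.38, -0.30 and -0.05 for the next lists down, and -0.55 for the mitosis genes.

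Markers of the cells that the preparation could hold were read beside these results, and their part in the members' differences was not tested. Summed values are the log2 of the summed linear signal of a list. Over all genes 19.4% were lower and 20.0% higher without overlap. At a DMSO level from 8 to 9 the share lower was 40.6%, and from 9 up 45.1%. The DC markers summed to 15.3 and 14.8 with DMSO and 14.3 and 14.8 with TCDD. Of these 10 of 10 were above the dim threshold and 3 lower without overlap (Itgax, Zbtb46 and H2-Ab1), at a median level of 9.79. The sum is carried by H2-Aa, H2-Ab1, H2-Eb1 and Cd74, at mean levels from 12.3 to 13.0, and does not by itself mark DC. Itgax, Flt3 and Zbtb46 were present at mean levels of 9.55, 9.15 and 7.98. Markers of type 1 conventional DC went from 12.2 and 12.2 to 11.4 and 11.4, with 5 of 8 lower, and those of type 2 from 11.0 and 11.1 to 10.1 and 10.4, with 3 of 7 lower (Xcr1, Itgam and Mgl2 were dim). Plasmacytoid DC markers stood at 9.99 and 9.76 against 10.2 and 9.68, with 0 of 7 lower and 2 higher (Cox6a2 and Klk1). Macrophage and monocyte markers stood at 13.5 and 13.6 against 13.3 and 12.8, with 6 of 14 lower. A summed signal is carried by the brightest genes of a list, so the median difference is given too. It was -0.48 for the DC markers, -0.58 for type 1, -0.20 for type 2 and 0.05 for plasmacytoid DC markers, and -0.68 for macrophage and monocyte markers, beside -0.35 for the members.

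Markers of cells other than DC gave the following values, beside 19.4% lower and 20.0% higher without overlap over all genes. B cell markers summed to 12.2 and 11.7 with DMSO and 12.1 and 11.0 with TCDD, with 4 of 9 lower and 2 higher (Cd79a and Fcer2a). Neutrophil markers stood at 9.55 and 9.26 with DMSO and at 11.6 and 9.29 with TCDD, high on TCDD replicate 1 alone, with 2 of 9 higher (Camp and the dim Lcn2) and 1 lower (Mmp9). Erythroid precursor markers, of a lineage that divides in the spleen, stood at 10.1 and 10.8 against 10.3 and 10.7, with 0 of 10 lower, 2 higher (Klf1 and Hba-a1) and Car1 dim. Plasma cell markers (10.1 and 9.84 against 9.71 and 9.45), T cell markers (8.56 and 8.55 against 8.62 and 8.41) and NK cell markers (9.15 and 8.68 against 8.85 and 8.60) had 1 gene each lower without overlap (Prdm1, Cd5 and Klrk1), and the T cell markers Cd3g and Lef1 were higher. The median difference was -0.40 for B cell and plasma cell markers, 0.10 for T cell, -0.10 for NK cell, 0.60 for neutrophil and 0.075 for erythroid precursor markers. Dim in these lists were Tnfrsf17, the T cell markers Cd3g, Cd247, Cd28 and Lef1, and the NK cell markers Ncr1, Gzmb and Eomes.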

How the data were processed

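The authors deposited log2 values made by RMA, as the submitters' processing notes name it. RMA as a method corrects background, normalizes between arrays by quantiles and summarizes the probes of a probe set. The deposited values still differed in distribution between arrays. Quantile normalization of these values moved the members' median from -0.35 to -0.11. The reason was not tested. For the software version and genome build, the sources used here give nothing. All deposited log2 values lay on steps of 0.1. Of 22690 probe sets, 64 controls were left out of the tests. Of the other 22626, by the platform's annotation, 20380 had 1 symbol, 691 several and 1555 none. Arrays give no counts, so precision is limited by how many there are.

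The groups were fitted with limma 3.58.1 in R 4.3.3 (lmFit, eBayes, two-sided), with Benjamini-Hochberg adjustment over all 22626. The fit was run on simulated data with the same noise for every probe set. The spread on these arrays varied between probe sets, so that run checks the code and not the power here. An exact permutation test of 2 arrays against 2 cannot go below p = 0.33, so none was run. Lists were described by counts and medians, with no set test. The members and lists were chosen with earlier results of these data known. Values on every array were to be given for members without overlap, for members of at least 0.5 in size, and for the MCM genes and Pcna. Of each pathway list up to 5 genes were to be named, those of largest difference without overlap that were not dim. Alternatives were other scalings, the replicate block, other priors, a filter on dim probe sets, other probe set choices and each array left out. Promoter windows come from RefSeq.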

Additional observations from a re-analysis of the deposited data

Results flagged for a closer look

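The control probe sets, which no comparison used, gave a signal on TCDD replicate 1 above both DMSO arrays. There the 3′ end exceeded the middle by 3.6 for Gapdh (1.5 and 2.1 in DMSO) and by 4.0 for beta-actin (1.9 and 2.1 in DMSO), on the log2 scale. The 3′ end exceeded the 5′ end by 5.4 for Gapdh (4.1 and 4.9 in DMSO) and by 4.4 for beta-actin (4.0 and 3.7 in DMSO).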

How the results depend on the processing

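Limma called 0 probe sets under every setting run, with the replicate block too. The labels do not tell if equal replicate numbers pair arrays; the deviations of replicate 1 correlated at -0.189 between groups. With the block 6 members had an unadjusted p under 0.05 in place of 8. Cdc6, Mcm6, Uhrf1 and Tyms were in both counts. Prim1 and Rpa2 were new, and Mcm2, Mcm4, Pola1 and Pola2 dropped out. Of all 22626 probe sets 2047 were under 0.05 with the block, against 2958 without it. The crossed pairing, added after the data were seen, called 0. The 17 members lower without overlap became 10 under quantile normalization and came to between 18 and 30 when each array was left out in turn (26 without DMSO replicate 1 and 30 without TCDD replicate 1, against 29.0% and 46.3% of all genes), since fewer arrays overlap less often. The 1 higher member became 3 under quantile normalization and 3 under cyclic loess, 0 with the median of all probe sets of a gene and 0 without dim members, and to between 1 and 5 when each array was left out. The median of -0.35 became -0.11 under quantile normalization and -0.15 under cyclic loess, and lay between -0.43 and -0.18 over the left-out arrays (-0.20 without DMSO replicate 2, -0.18 without TCDD replicate 2). The 4 members at least 2-fold lower became 2 with each of quantile normalization and cyclic loess, 11 with a threshold of 1.5-fold, and between 1 (without DMSO replicate 2) and 6 over the left-out arrays. On the deposited values 2.42% of all genes were at least 2-fold lower without overlap. For the other settings this share is not given, so their counts have no background beside them. Among members without overlap, differences turned sign for Mcm2 (0.075) and Rfc2 (0.175) under quantile normalization, for Rfc2 (0.127) under cyclic loess and for Tyms (-0.05) with the median of its probe sets. Counting members with overlap, the sign turned in 7 under quantile normalization (also Mcm3, Rpa3, Rrm1, Tk1 and Dnmt1), in 3 under cyclic loess (also Mcm3 and Dnmt1) and in 7 without TCDD replicate 2 (Orc2, Cdc45, Rfc3, Rfc4, Rpa1, Rrm1 and Dnmt1), and in 0 to 2 under each other setting run. The cause was not tested.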
